A study of Mus musculus with 7 samples.

Results

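The 7 mRNAs described here encode the complex I subunits that are read from the mitochondrial genome: mt-Nd1, mt-Nd2, mt-Nd3, mt-Nd4l, mt-Nd4, mt-Nd5 and mt-Nd6. They were chosen by name, as the rows of the deposited gene table whose identifier, version removed, maps to these symbols, and all 7 of the 7 were found among 22248 genes. RNA was sequenced from hippocampal synaptoneurosomes, a brain fraction rich in nerve terminals that have broken off and resealed together with parts of the postsynaptic side, of wild-type C57Bl/6J female mice. The 4 AM6545 libraries (replicates B, D, E and F) came from mice treated sub-chronically with AM6545, an antagonist of the CB1 cannabinoid receptor that enters the brain poorly, and the 3 vehicle libraries (replicates B, D and E) from mice given vehicle. The dose, the duration, the age of the mice and the number of mice in a library are not given in the sources used here, so the p-values below measure only the spread between these libraries. The fraction is not pure, and the comparison is of bulk RNA, in which fewer mitochondria or cells of a type and less RNA in each cannot be told apart.

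Complex I, the NADH:ubiquinone oxidoreductase, is the largest enzyme of the respiratory chain: it passes electrons from NADH to ubiquinone and pumps protons across the inner mitochondrial membrane. Its mitochondrially encoded subunits form the core of the membrane arm, while the nuclear genome encodes its other subunits and its assembly factors. Both strands of mitochondrial DNA are transcribed as long precursors that are cut mostly at the tRNAs between the genes. Mitochondria are abundant in presynaptic endings and in dendrites, so a synaptic fraction carries their mRNAs.

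In GENCODE release M21 (GRCm38) 6 of the 7 genes lie on the plus strand of the mitochondrial chromosome and mt-Nd6 lies on the minus strand. Their positions are chrM:2751-3707 for mt-Nd1, chrM:3914-4951 for mt-Nd2, chrM:9459-9806 for mt-Nd3, chrM:9877-10173 for mt-Nd4l, chrM:10167-11544 for mt-Nd4, chrM:11742-13565 for mt-Nd5 and chrM:13552-14070 for mt-Nd6. Each is a single exon with no intron. The submitters' processing notes name the matching build mm10. The following stretches are shown because they limit how far the counts of neighbours and copies can be separated. The first 300 bases of mt-Nd3 (chrM:9459-9758) are printed, with a capital at the base that differs from its nuclear copy Gm28438 (T3C, counted from 1 at the 5′ end of mt-Nd3). mt-Nd4l is printed whole and mt-Nd4 by its first 60 bases, with capitals at the 7 bases that both share on the same strand (chrM:10167-10173), as the reading frames overlap on a common mRNA. The last 60 bases of mt-Nd5 and of mt-Nd6 are printed 5′ to 3′ on their own strands, with capitals at the 14 bases (chrM:13552-13565) that are complementary.
mt-Nd3: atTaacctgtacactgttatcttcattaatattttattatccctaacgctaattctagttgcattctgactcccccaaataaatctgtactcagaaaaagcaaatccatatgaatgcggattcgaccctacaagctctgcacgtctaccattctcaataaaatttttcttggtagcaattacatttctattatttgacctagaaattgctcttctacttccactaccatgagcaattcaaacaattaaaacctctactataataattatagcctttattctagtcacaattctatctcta
mt-Nd4l: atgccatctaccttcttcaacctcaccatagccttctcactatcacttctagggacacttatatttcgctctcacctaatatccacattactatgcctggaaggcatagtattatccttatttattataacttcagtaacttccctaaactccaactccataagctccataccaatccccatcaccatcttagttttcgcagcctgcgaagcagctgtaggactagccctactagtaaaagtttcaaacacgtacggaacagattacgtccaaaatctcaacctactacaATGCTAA
mt-Nd4: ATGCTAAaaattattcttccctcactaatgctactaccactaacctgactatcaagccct
mt-Nd5: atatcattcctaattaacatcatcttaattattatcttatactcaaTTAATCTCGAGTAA
mt-Nd6: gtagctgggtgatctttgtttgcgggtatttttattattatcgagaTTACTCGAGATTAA

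Among annotated transcripts, mt-Nd1 had no nuclear copy of at least 100 bases at 90% identity or more, and the other 6 did. An unprocessed pseudogene on chromosome 1 matched 99.1% of mt-Nd3 at 99.7% identity (Gm28438), another matched 99% of mt-Nd4l at 100% identity (Gm10222), and Gm28439, also on chromosome 1, matched 63.6% of mt-Nd4 at 100% identity. The copies of mt-Nd2 (Gm13339, 96.7% identity over 49.1% of its length), mt-Nd5 (Gm4076, 95.2% over 52.3%) and mt-Nd6 (Gm11408, 93.6% over 100%) were less alike. None of these copies has a row of its own among the deposited genes, so their levels could not be read. Reads from them and from the mitochondrial genes may be counted together, so the levels of mt-Nd3 and mt-Nd4l are the most uncertain. The use of strand in counting is not given in the sources used here, so reads of mt-Nd6 and of the opposite strand may also be mixed.

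Library totals ran from 19174649 counts in vehicle replicate E to 25894733 in vehicle replicate B. The 7 neuron and synapse markers summed to 8566 to 9486 CPM (counts scaled to a common library size, with TMM factors) across libraries and the 5 hippocampal markers to 902 to 1061 CPM, while the 3 cerebellar markers summed to at most 0.687 CPM. For the neuron and synapse markers the groups were separate, with 8965 CPM or more in AM6545 and 8669 CPM or less in vehicle. Of these 7 markers 1, Snap25 (3720 CPM in AM6545 and 3209 CPM in vehicle on average), was itself separate, where 6.63% of all genes tested were higher without overlap. Camk2a and Slc17a7, 2 of the 7, had negative log2 fold changes. Markers of other cell types were present. The 6 oligodendrocyte markers summed to 17120 to 20220 CPM in AM6545 and 16810 to 23050 CPM in vehicle, and the 7 microglia markers to 842 to 935 CPM and 865 to 1104 CPM. Of the 7 microglia markers 3 (C1qa, C1qb and Tmem119) were lower in AM6545 without overlap, where 7.19% of all genes tested were. Negative log2 fold changes were found for 5 of the 7 and positive ones for 2, with a median of -0.07. The 6 astrocyte markers summed to 2126 to 2427 CPM and 2173 to 2637 CPM. Of these 6, 1 (Slc1a2, log2 fold change -0.45, edgeR adjusted p 0.245) was lower without overlap, against the same 7.19% of all genes, and was highest in vehicle replicate B. The 6 astrocyte markers had 3 negative and 3 positive log2 fold changes, with a median of 0.03. The 5 endothelial markers summed to 9.64 to 14.6 CPM and 9.42 to 13.9 CPM. The 5 choroid plexus markers, led by Ttr, ranged from 402 to 1903 CPM in AM6545 and from 1524 to 2711 CPM in vehicle. The 5 red blood cell markers summed to 289 to 759 CPM and 430 to 847 CPM. Vehicle replicate B, the library with the highest mitochondrial share, was within the range of the other libraries for the choroid plexus markers (1866 CPM) and red blood cell markers (488 CPM). It had the lowest sum of the endothelial (9.42 CPM) and oligodendrocyte markers (16810 CPM). The part of these cell types in the results below was not tested.

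Levels of the 7 mRNAs were compared with each other per kilobase of annotated length, on the CPM scale. mt-Nd1 was highest, at 4540 ± 602 CPM per kilobase in AM6545 (SD, n = 4) and 6158 ± 1787 in vehicle (SD, n = 3). It was followed by mt-Nd4 (3035 ± 274 and 4182 ± 1273; SD, n = 4 and 3), and mt-Nd1 exceeded mt-Nd4 by 1.42-fold to 1.60-fold within each of the 7 libraries. mt-Nd4 in turn exceeded mt-Nd2 by 1.83-fold to 2-fold in 7 of 7. The neighbours mt-Nd2 and mt-Nd5 were not separated, since mt-Nd2 was higher in 5 of 7 libraries by at most 1.25-fold. mt-Nd6, the mRNA read from the other strand, lay 1.03-fold to 1.54-fold below mt-Nd5 in 7 of 7 libraries. A gap followed, with mt-Nd6 at 3.30-fold to 4.59-fold the level of mt-Nd3 and no overlap between their ranges. mt-Nd3 (225 to 601 CPM per kilobase) and mt-Nd4l (230 to 427) were lowest and changed places between libraries, with mt-Nd3 higher in 3 of 7.

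**Figure D1:**
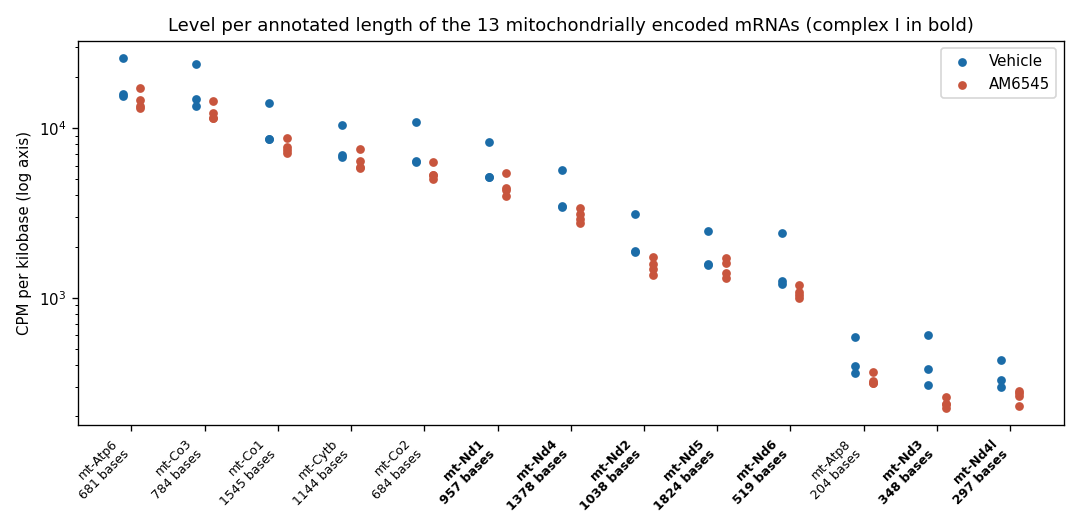
Level per annotated length (vertical, CPM per kilobase on a log axis) of the 13 mitochondrially encoded mRNAs, with 1 point per library and the complex I mRNAs in bold. The 3 shortest mRNAs, mt-Atp8 (204 bases), mt-Nd4l (297 bases) and mt-Nd3 (348 bases), sit lowest, and vehicle replicate B is the highest point for each mRNA.

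The pair mt-Nd4l and mt-Nd4 share a bicistronic messenger RNA in mammals, yet their levels per kilobase were far apart. mt-Nd4 was at 10.4 to 12.6 times mt-Nd4l in the AM6545 libraries and at 10.6 to 13.2 times in the vehicle libraries. The 3 lowest mRNAs per kilobase among the 13 were also the 3 shortest, mt-Atp8, mt-Nd3 and mt-Nd4l, with 204, 348 and 297 bases. The authors' effective lengths were not used here, and the part of length in these levels was not tested.

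The 7 mRNAs together took 1.21%, 1.40%, 1.60% and 1.30% of all counts in AM6545 replicates B, D, E and F, and 2.40%, 1.58% and 1.48% in vehicle replicates B, D and E. Vehicle replicate B stood apart (95% Wilson interval 2.389% to 2.401%), and AM6545 replicate E lay above the other 2 vehicle libraries, so the groups overlapped. The group means were 1.38% ± 0.167 (SD, n = 4) and 1.82% ± 0.503 (SD, n = 3). Counts of single mRNAs ran from 1643.7 to 195414, and no 95% Wilson interval of a share was wider than 0.00333 percentage points on either side. These intervals cover counting error only. The values of each mRNA follow, ordered by the role of its protein, as shares of all counts. Each was tested by an exact permutation of the group labels, which has 35 arrangements and a smallest two-sided p of 0.0286. Such tests were run on 7 shares of all counts and on 13 shares of the mitochondrial pool, and their p-values are not adjusted. How many of all genes were without overlap is given below for TMM-scaled CPM and not for these shares.

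mt-Nd1 encodes the subunit at the foot of the membrane arm that lines the ubiquinone-binding cavity. Its share was 0.377%, 0.430%, 0.531% and 0.421% in AM6545 replicates B, D, E and F and 0.755%, 0.507% and 0.473% in vehicle replicates B, D and E (exact permutation p 0.114). AM6545 replicate E lay above vehicle replicates D and E, so the groups overlapped. mt-Nd3 encodes a small subunit whose loop sits beside that cavity and takes part in the switch between active and resting enzyme. Its share was 0.00812%, 0.00792%, 0.00928% and 0.00835% in AM6545 and 0.0200%, 0.0110% and 0.0127% in vehicle, in the same order of replicates (exact permutation p 0.0286). All 4 AM6545 libraries were below all 3 vehicle libraries, and the AM6545 libraries were close together.

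mt-Nd6, which encodes a subunit next to the mt-Nd3 product, had shares of 0.0509%, 0.0543%, 0.0630% and 0.0568% in AM6545 and 0.120%, 0.0649% and 0.0626% in vehicle (exact permutation p 0.0571). Here vehicle replicate B was nearly alone in being high, and AM6545 replicate E met vehicle replicate E. mt-Nd4l encodes a small subunit in the proton path of the proximal arm. Its shares were 0.00772%, 0.00830%, 0.00865% and 0.00692% in AM6545 and 0.0122%, 0.0100% and 0.00857% in vehicle (exact permutation p 0.0571), with the same 2 libraries meeting.

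mt-Nd2, mt-Nd4 and mt-Nd5 encode the large antiporter-like subunits that line up along the membrane arm and carry proton channels. The share of mt-Nd2 was 0.140%, 0.165%, 0.186% and 0.156% in AM6545 and 0.308%, 0.198% and 0.188% in vehicle (exact permutation p 0.0286), without overlap but with AM6545 replicate E close to vehicle replicate E. That of mt-Nd4 was 0.373%, 0.437%, 0.477% and 0.406% in AM6545 and 0.747%, 0.493% and 0.456% in vehicle (exact permutation p 0.0571), where AM6545 replicate E exceeded vehicle replicate E. That of mt-Nd5, the subunit at the tip of the arm, was 0.253%, 0.294%, 0.322% and 0.242% in AM6545 and 0.433%, 0.292% and 0.279% in vehicle (exact permutation p 0.286). For mt-Nd5, AM6545 replicates D and E were above vehicle replicates D and E.

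**Figure D2:**
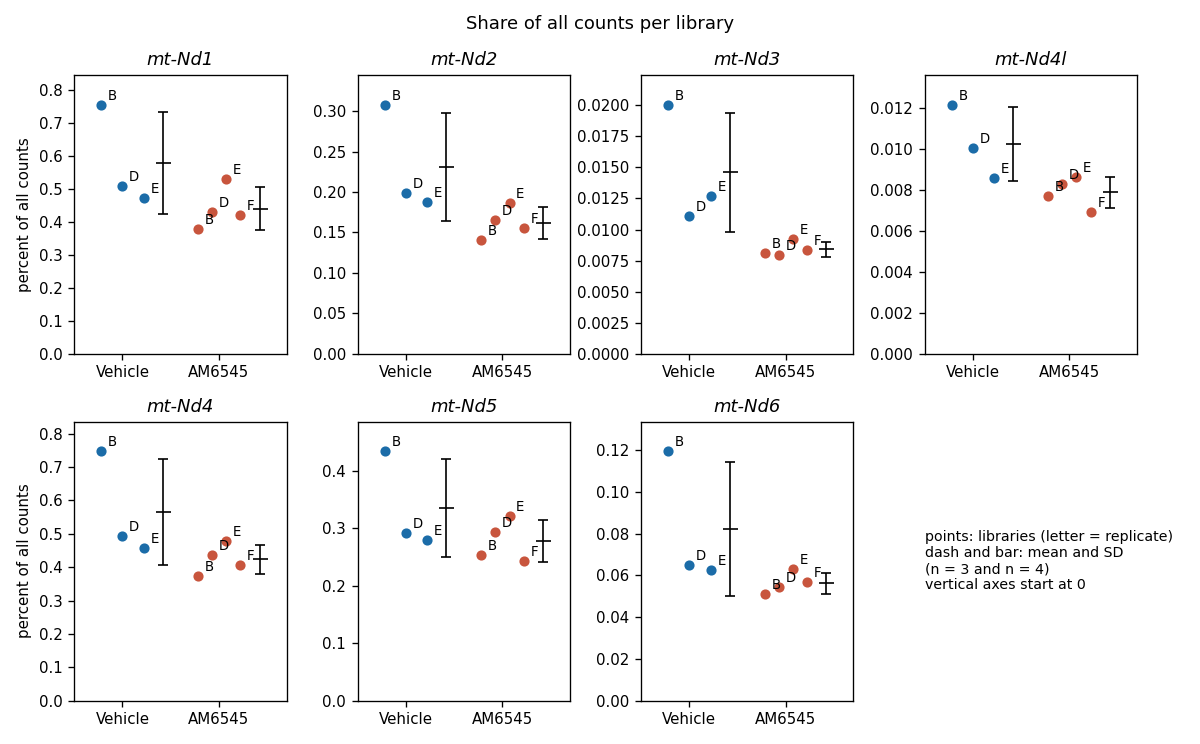
Share of all counts (vertical, percent, axis from 0) of each of the 7 mRNAs, with 1 point per library, the replicate letter beside it, and the mean and SD of each group to its right. Vehicle replicate B is the highest point for 7 of the 7 mRNAs, where in TMM-scaled CPM it was highest for 27.4% of all genes tested. The groups are without overlap for mt-Nd2 and mt-Nd3 on the scale drawn. In TMM-scaled CPM 5 of the 7 were lower without overlap, where 7.19% of all genes were.

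In edgeR's quasi-likelihood test over 14654 genes, 0 of the 7 mRNAs had a Benjamini-Hochberg adjusted p under 0.05, where 1 gene in all (0.00682%) did. All 7 log2 fold changes (AM6545 over vehicle) were negative, with a median of -0.46, where the median of all genes tested was 0.01 and 48.6% were below 0. At an unadjusted p under 0.05, 6 of the 7 were lower in AM6545, all except mt-Nd5, where 8.7% of genes were. On the TMM-scaled CPM scale 5 of the 7 were lower without overlap between groups, where 7.19% of genes were, and 0 were higher without overlap, where 6.63% were. The members are parts of common precursor RNAs and share libraries, so they are not independent of each other.

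The largest difference was that of mt-Nd3, with 83.2 ± 5.02 CPM in AM6545 (SD, n = 4), 149 ± 53.3 CPM in vehicle (SD, n = 3) and a log2 fold change of -0.84 (SE 0.19; edgeR, unadjusted p 0.000836, adjusted p 0.199). mt-Nd6 had -0.60 (SE 0.21, edgeR adjusted p 0.263), from 556 ± 41.8 and 841 ± 351 CPM (SD, n = 4 and 3). mt-Nd2 had -0.56 (SE 0.17, edgeR adjusted p 0.231), from 1599 ± 166 and 2358 ± 739 CPM (SD, n = 4 and 3). For each of these 3 mRNAs, 4 of 4 AM6545 libraries lay below the lowest vehicle library. The remaining log2 fold changes were -0.46 for mt-Nd4, -0.44 for mt-Nd1, -0.42 for mt-Nd4l and -0.31 for mt-Nd5, with SEs of 0.13 to 0.17 and edgeR adjusted p-values of 0.231 to 0.408. Of these 4, mt-Nd4 and mt-Nd4l were without overlap. Among the alternative tests, DESeq2 gave mt-Nd3 an adjusted p of 0.00619 and no other member one under 0.05. With limma-voom and quality weights the 7 log2 fold changes ran from -0.55 for mt-Nd3 to -0.11 for mt-Nd5, with a lowest adjusted p of 0.0546.

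The difference between groups also varied with GC content across all genes: the slope of log2 level per 10 percentage points of GC was -0.12 to -0.03 in AM6545 libraries and 0.05 to 0.14 in vehicle libraries. The 7 mRNAs, at 33.1% to 41.1% GC, all fall in the bottom decile by GC content. Of those 1464 genes 77% were higher in AM6545, and their median log2 fold change was 0.16. The 7 log2 fold changes had the opposite sign to that median. Genes of like length were not compared, and the part of GC content or of length in these differences was not tested. With each library's trends with GC content and length removed, the log2 fold changes were -0.54 for mt-Nd2, -0.54 for mt-Nd4, -0.46 for mt-Nd5, -0.41 for mt-Nd3, -0.38 for mt-Nd1 and -0.30 for mt-Nd6. That of mt-Nd4l turned positive, at 0.09 (SE 0.10), and its unadjusted edgeR p moved from 0.00674 to 0.394. That of mt-Nd5 moved from 0.0866 to 0.0128 and the other 5 stayed under 0.05, where 990 of 14654 genes were, in either direction. The edgeR adjusted p-values were 0.729 or more for the 7.

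Vehicle replicate B carried much of these differences. It was the highest of the 7 libraries for 7 of the 7 mRNAs, where it was highest for 27.4% of all genes tested. Against the mean of vehicle replicates D and E, its CPM was 1.36-fold for mt-Nd4l, 1.58-fold for mt-Nd5, 1.60-fold for mt-Nd1, 1.64-fold for mt-Nd4, 1.66-fold for mt-Nd2, 1.75-fold for mt-Nd3 and 1.95-fold for mt-Nd6. The median over all genes of the same log2 ratio was -0.01, and the ratios of the 7 mRNAs exceeded those of 92.4% to 99.7% of genes. The SD of log2 CPM among the vehicle libraries was 0.27 to 0.56 for the 7 mRNAs, against a median of 0.19 for all genes. Among the AM6545 libraries it was 0.09 for mt-Nd3 to 0.18 for mt-Nd1, against a median of 0.15.

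Without vehicle replicate B the log2 fold changes stayed negative for 7 of 7 and their median moved to -0.20. mt-Nd3 had -0.51 (SE 0.10), mt-Nd2 -0.27 (SE 0.12), mt-Nd4l -0.25 (SE 0.11), mt-Nd6 -0.20 (SE 0.10), mt-Nd4 -0.18 (SE 0.12), mt-Nd1 -0.17 (SE 0.13) and mt-Nd5 -0.05 (SE 0.13). Their edgeR adjusted p-values were 0.378 for mt-Nd3 and 0.757 to 0.969 for the other 6. At an unadjusted p under 0.05, 3 of the 7 (mt-Nd2, mt-Nd3 and mt-Nd4l) were then lower, where 3.69% of genes were, and 4 of 7 were lower without overlap, where 8.14% of genes were. On the scale of shares of all counts, leaving out that library removed 86.5% of the difference for mt-Nd5, 71.3% for mt-Nd6, 63.8% for mt-Nd4, 63.6% for mt-Nd1, 55.2% for mt-Nd2, 44.0% for mt-Nd3 and 40.4% for mt-Nd4l. The summed share differed by -0.442 percentage points with it and by -0.153 without it. With 4 against 2 libraries the smallest exact permutation p is 0.0667, which mt-Nd3 reached.

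Vehicle replicates D and E both weighed the other way, since without either of them replicate B makes up a larger part of the vehicle group. The median of the 7 log2 fold changes was -0.585 without replicate E and -0.582 without replicate D. Without replicate E the log2 fold changes ran from -0.92 for mt-Nd3 to -0.42 for mt-Nd5. mt-Nd4l (-0.52, edgeR adjusted p 0.0323), mt-Nd2 (-0.68, 0.0382) and mt-Nd3 (-0.92, 0.0464) then passed 0.05, in a fit that called 944 genes in all. Without vehicle replicate D they ran from -1.04 for mt-Nd3 to -0.43 for mt-Nd5, and none of the 7 passed (lowest edgeR adjusted p 0.148, for mt-Nd3).

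**Figure D3:**
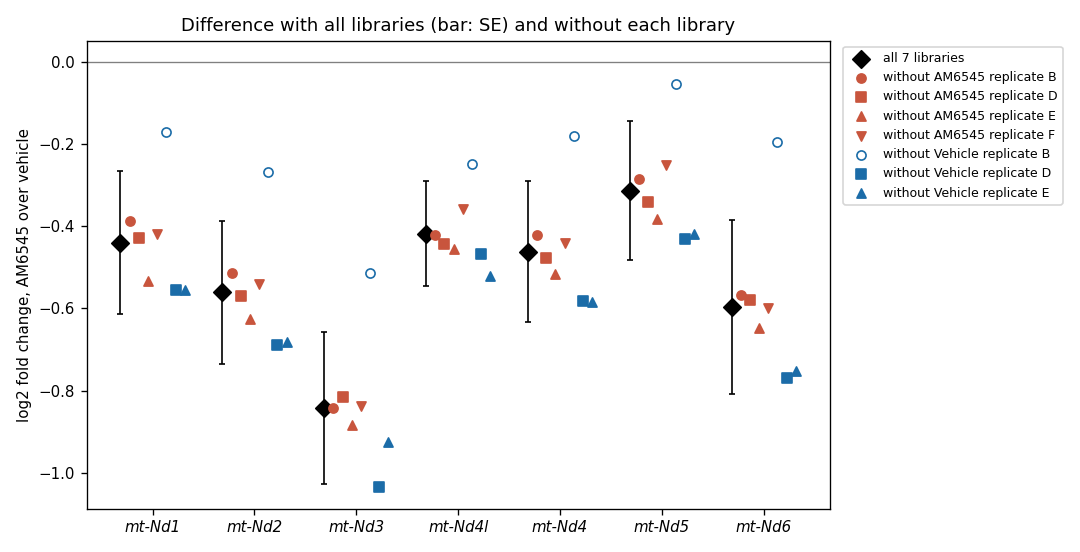
Log2 fold change of AM6545 over vehicle (vertical) for each of the 7 mRNAs with all libraries (black diamonds, bars are SE) and without each library in turn. The open circles, without vehicle replicate B, lie nearest to 0 for 7 of 7 mRNAs, and mt-Nd3 remains lowest at -0.51.

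The make-up of the mitochondrial pool was examined by the share of each mRNA in the summed counts of the 13 mitochondrially encoded mRNAs, a measure that a common change in level leaves unmoved. Such shares add up to a fixed total, so they are not independent of each other. The pool also holds mt-Atp6, mt-Co2 and mt-Co3, which have nuclear copies too (Gm10925, Gm28661 and Gm28437). Each copy matched at 100% identity over 99.6% or more of the length. The 7 complex I mRNAs took 23.9% to 24.6% of the pool in AM6545 libraries and 24.2% to 24.7% in vehicle libraries. The share of mt-Nd3 was 0.160%, 0.139%, 0.139% and 0.156% in AM6545 replicates B, D, E and F and 0.204%, 0.173% and 0.208% in vehicle replicates B, D and E. All AM6545 libraries were below all vehicle libraries, at an exact permutation p of 0.0286, and the means were 0.149% ± 0.0111 (SD, n = 4) and 0.195% ± 0.0190 (SD, n = 3). Pool shares were taken from counts without the GC and length correction and were not tested with it. Under that correction the log2 fold change of mt-Nd3 moved from -0.84 to -0.41, the median of the 7 mRNAs. The share of mt-Nd2 was 2.77%, 2.90%, 2.80% and 2.92% in AM6545 and 3.14%, 3.11% and 3.07% in vehicle, again without overlap (exact permutation p 0.0286). Its means were 2.85% ± 0.0740 (SD, n = 4) and 3.10% ± 0.0335 (SD, n = 3). An alternative pool left out the mRNAs with near-identical nuclear copies (mt-Atp6, mt-Co2, mt-Co3, mt-Nd3 and mt-Nd4l). In that pool the share of mt-Nd2 differed by -0.487 percentage points (exact permutation p 0.0286). Vehicle replicate B was not set apart by either measure: without it the differences moved from -0.0463 to -0.0418 percentage points for mt-Nd3 and from -0.258 to -0.242 for mt-Nd2, still without overlap.

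Separation in the pool was not limited to these 2: of the 6 other mRNAs, 3 were also without overlap, mt-Atp6 higher in AM6545 (17.6% against 17.0%, exact permutation p 0.0286), mt-Cytb higher (12.97% against 12.23%, exact permutation p 0.0571) and mt-Co2 lower (6.64% against 7.06%, exact permutation p 0.0571). The other 5 complex I shares overlapped between groups. mt-Nd1 took 7.44% to 7.97% in AM6545 and 7.68% to 7.95% in vehicle (exact permutation p 0.657). mt-Nd4 took 7.17% to 7.68% and 7.47% to 7.73% (exact permutation p 0.371). mt-Nd5 was the member whose mean was higher in AM6545, at 4.54% to 5.17% and 4.41% to 4.58% (exact permutation p 0.114). mt-Nd6 took 0.946% to 1.07% and 1.02% to 1.22% (exact permutation p 0.2), where vehicle replicate B was the highest, and mt-Nd4l 0.130% to 0.152% and 0.124% to 0.158% (exact permutation p 1).

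**Figure D4:**
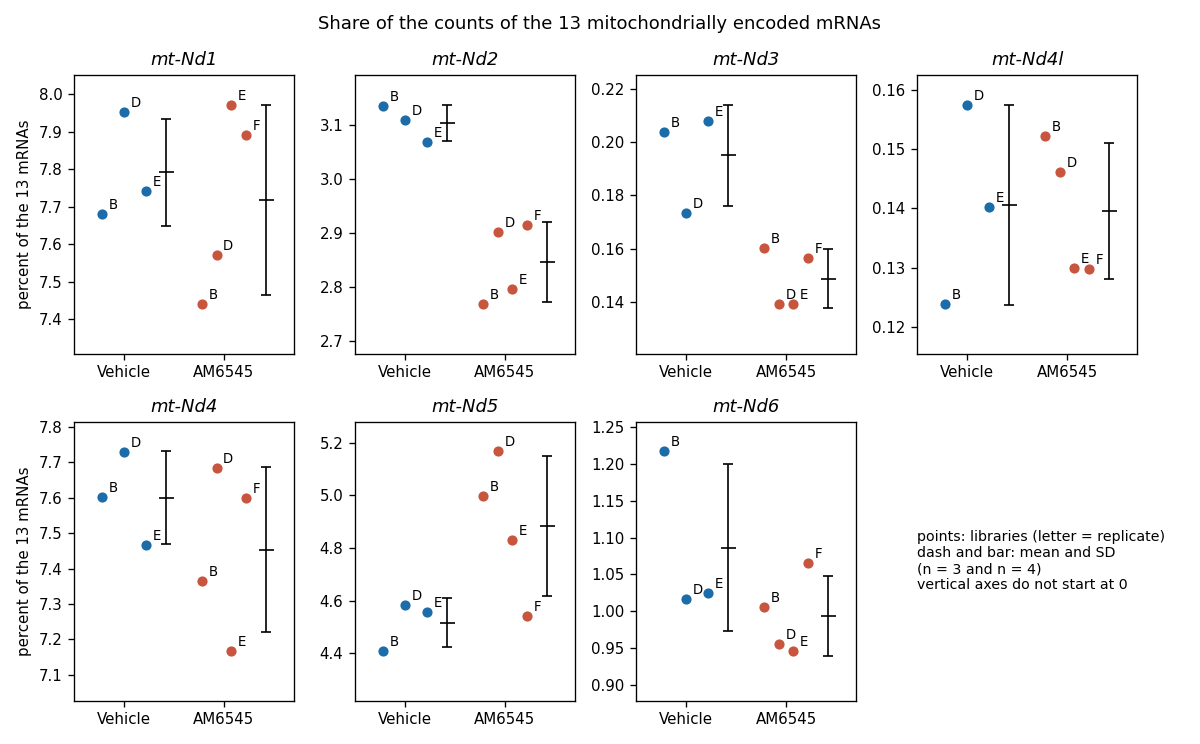
Share of each of the 7 mRNAs in the counts of the 13 mitochondrially encoded mRNAs (vertical, percent, axes not from 0), with 1 point per library and the mean and SD of each group to its right. The groups are separate for mt-Nd2 and mt-Nd3 and overlap for the other 5, where 3 of the 6 mRNAs not drawn were separate, and vehicle replicate B is not the highest point for mt-Nd3.

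Across the 7 libraries the mRNAs moved together. Pearson's r of log2 CPM over the 21 pairs of the 7 mRNAs had a median of 0.94 (0.849 to 0.996), and without vehicle replicate B a median of 0.78 (0.346 to 0.987). With the 6 other mitochondrially encoded mRNAs the median over 42 pairs was 0.98, and 0.86 without that library. These points share libraries and depth and are given as a description. The nuclear genes most like the mean of the 7 mRNAs were Podxl2 (r 0.992), Tecr, an enzyme of very long-chain fatty acid synthesis (0.990), Tmem176a (0.989) and Txndc15 (0.987), over 7 libraries. Without vehicle replicate B their r was 0.92 to 0.96. In all, 3.37% of the nuclear genes tested had an r above 0.9. By single mRNA, the most alike gene was Slc12a5, the neuronal potassium-chloride cotransporter, for mt-Nd1, mt-Nd4 for mt-Nd2, Cst6 for mt-Nd3 and Fkbp11 for mt-Nd4l. For mt-Nd4 it was mt-Co1, for mt-Nd5 Igsf21 and for mt-Nd6 Rtn1.

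The other mitochondrially encoded mRNAs also had negative log2 fold changes, and their difference from the complex I mRNAs was not tested: -0.53 for mt-Co2, -0.49 for mt-Co3, -0.44 for mt-Co1 and mt-Atp8, -0.38 for mt-Atp6 and -0.33 for mt-Cytb. Of these 6, encoding subunits of cytochrome c oxidase, ATP synthase and the cytochrome bc1 complex, 0 passed an edgeR adjusted p of 0.05. At an unadjusted p under 0.05, 4 were lower, where 8.7% of all genes were. Only mt-Co2, 1 of the 6, was lower without overlap, where 7.19% of all genes were. Without vehicle replicate B the median of these 6 moved from -0.44 to -0.17. None (0 of 6) was then under an unadjusted p of 0.05, where 3.69% of all genes were lower at that p.

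Of 37 nuclear-encoded complex I subunits tested, 0 passed an adjusted p of 0.05 in edgeR. Negative log2 fold changes were found for 34, with a median of -0.41, where 48.6% of all genes tested were below 0. At an unadjusted p under 0.05, 29 were lower, where 8.7% of all genes were. They took 0.426% to 0.481% of all counts in AM6545 and 0.502% to 0.600% in vehicle, without overlap. The smallest p-values were those of Ndufs5 (log2 fold change -0.49, SE 0.11) and Ndufa1 (-0.58, SE 0.13), both accessory subunits, each with an edgeR adjusted p of 0.199. Without vehicle replicate B the median of the 37 was -0.23, with 23 lower at an unadjusted p under 0.05, where 3.69% of all genes were. With the GC and length trends removed the median of the 37 was -0.04, with 8 lower. In that fit 990 of 14654 genes were under this p in either direction, and the median of the 7 mitochondrially encoded mRNAs was -0.41. The ratio of mitochondrially encoded to nuclear-encoded complex I counts was 2.52, 3.05, 3.75 and 2.70 in AM6545 replicates B, D, E and F and 3.99, 3.14 and 2.86 in vehicle replicates B, D and E. The groups overlapped in this ratio, and without vehicle replicate B their means differed by 0.00108.

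Factors that build complex I or act on mitochondrial nucleic acids had log2 fold changes nearer to 0. Of 18 complex I assembly factors 0 passed, with a median log2 fold change of 0.04, and the smallest p-values were those of Ndufaf8 (-0.49, SE 0.13, edgeR adjusted p 0.199) and Ndufaf3 (-0.35, SE 0.10, 0.212). Of 23 genes of mitochondrial transcription and RNA maintenance 0 passed, with a median of 0.12. Slirp, whose product binds mitochondrial mRNAs with that of Lrpprc and stabilises them, had -0.47 (SE 0.12, edgeR adjusted p 0.199), from 20.1, 17.0, 17.5 and 19.5 CPM in AM6545 replicates B, D, E and F and 29.3, 24.8 and 22.4 CPM in vehicle replicates B, D and E, without overlap. Lrpprc itself had a log2 fold change of the opposite sign, 0.27 (SE 0.20, edgeR adjusted p 0.533), with overlap between groups. Trmt10c, a subunit of mitochondrial RNase P, had 0.33 (SE 0.12, edgeR adjusted p 0.261). Of the 23 genes, 18 had positive and 5 negative log2 fold changes. Of 6 genes of mitochondrial DNA replication 0 passed (median 0.04), with Twnk, the helicase, at 0.13 and Polg, the polymerase, at 0.14. Of 7 regulators of mitochondrial biogenesis 0 passed (median 0.11), with Gabpb1 at 0.24 and Gabpa at 0.25, subunits of a transcription factor of nuclear respiratory genes. At an unadjusted p under 0.05, 2 of the 18 assembly factors and 2 of the 23 RNA maintenance genes were lower, and 1 RNA maintenance gene and 1 biogenesis regulator were higher, where 8.7% and 5.86% of all genes were.

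**Figure D5:**
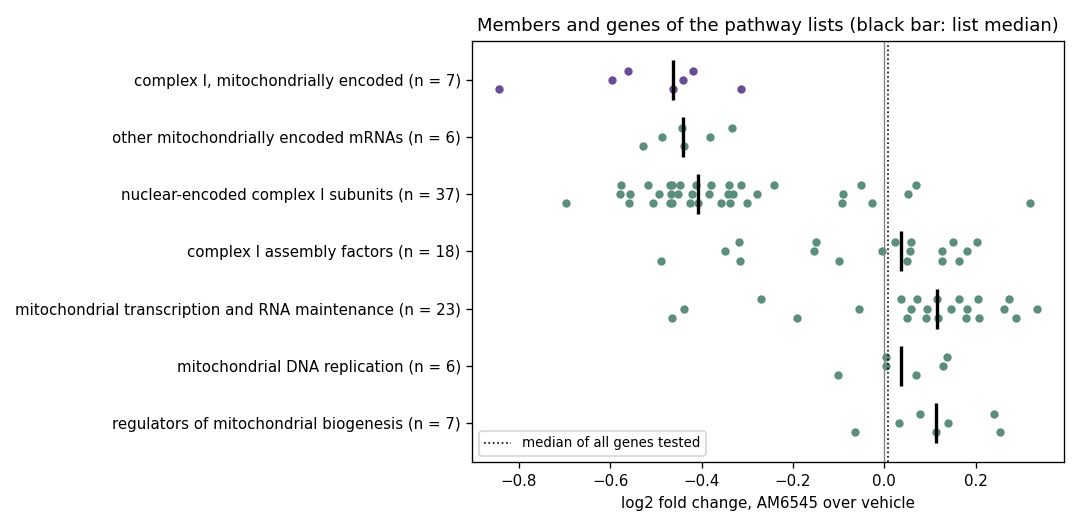
Log2 fold change of AM6545 over vehicle (horizontal) of the 7 mRNAs and of the genes of each pathway list (rows), with 1 point per gene, black bars at list medians and a dotted line at the median of all genes tested. The mitochondrially encoded and nuclear-encoded complex I mRNAs have medians of -0.46 and -0.41, and the other 4 lists of nuclear genes have medians of 0.04 to 0.12.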

How the data were processed

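Messenger RNA was measured in 7 libraries, 4 AM6545 and 3 vehicle, grouped by the treatment label. Per the labels' protocols, total RNA was isolated by RNeasy columns before SMARTer Ultra Low Input library preparation. The deposited values are estimated counts per gene and per transcript, and 83.5% of gene values above 0 are not whole. Per the submitters' processing notes, the authors used Salmon 1.5.2 and the build mm10. The annotation and strand setting are not given in the sources used here. Each of the 7 mRNAs has a single transcript with the same value in both tables.

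Estimated counts were rounded and tested across all genes with edgeR 4.0.16 (TMM, filterByExpr, robust quasi-likelihood fit, no covariates; limma 3.58.1, R 4.3.3), with Benjamini-Hochberg adjustment. SEs are the absolute log2 fold change over the square root of F. Log2 CPM used a prior count of 2. The code was tested on simulated data. Names, lengths, GC content and sequences came from GENCODE M21. Ndufb1 and the gene Prorp were matched under older names, and 1 listed assembly factor (Coa1) and 4 of 5 nuclear retained RNAs had no matching row; the fifth, Snhg11, had a log2 fold change of 0.00. Shares were tested by exact permutation. Named genes were the 7 mRNAs, the 6 other mitochondrially encoded ones, the 2 with the smallest p in each pathway list, and the genes with the highest r, of which 1 is not reported here. The marker genes C1qa, C1qb, Tmem119, Slc1a2, Snap25, Camk2a, Slc17a7 and Ttr were named after their values were seen, and Lrpprc was named as the partner of Slirp. The members and lists were chosen with earlier results of these data known. Alternatives were other scalings, tests (DESeq2 1.42.0, limma-voom), filters, a replicate block, a GC and length correction (lowess, span 0.3), other denominators and leaving out each library.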

Additional observations from a re-analysis of the deposited data

How the results depend on the processing

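The 7 log2 fold changes kept their sign under each alternative except that of mt-Nd4l, which was 0.09 with the GC and length correction and 0.17 with that correction and the replicate block. Scaling by DESeq2 size factors, total counts or upper quartiles left their median between -0.47 and -0.42. With limma-voom and quality weights it was -0.31, with mt-Nd3 at -0.55, mt-Nd2 at -0.34, mt-Nd4l at -0.33, mt-Nd6 at -0.31, mt-Nd1 at -0.27, mt-Nd4 at -0.25 and mt-Nd5 at -0.11. The count of genes past the threshold was 1 with edgeR, 205 with DESeq2 (1989 genes without an adjusted p), 394 with limma-voom, 2 with a mean of at least 50 counts and 0 with the GC and length correction (990 unadjusted). Leaving out 1 library gave 0 to 944 genes. Among the shares of the pool, whose differences for mt-Nd1 and mt-Nd4l were smaller than the spread, mt-Nd1 reversed to 0.0192 percentage points without AM6545 replicate B and 0.00658 without vehicle replicate D, within a range over libraries left out of -0.158 to 0.0192. mt-Nd4l reversed to 0.00220 and 0.00223 without AM6545 replicates E and F and to 0.00745 without vehicle replicate D, within a range of -0.00935 to 0.00745; the cause was not tested. With a library left out, the exact test cannot go under 0.0667, so no share could pass. Relative to the TMM effective library size, mt-Nd4, mt-Nd4l and mt-Nd6 also reached an exact permutation p of 0.0286.

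Libraries of the 2 groups share replicate letters. Their deviations from the group means correlated at -0.255, -0.13 and -0.18 across genes for letters B, D and E, and 0 of 3 correlated best with their own letter. Deviations from means of only 3 and 4 libraries cannot show whether the letters mark pairs or a batch. The main test did not take the letters as pairs. With the replicate block 1 gene passed (1199 unadjusted), the 7 log2 fold changes ran from -0.78 to -0.22, and their lowest edgeR adjusted p was 0.595. Counting error is small at this depth, and with 3 and 4 libraries the spread between libraries limits the precision.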
